A study of Vitis vinifera with 12 samples.

Results

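The change in gene expression between 50 and 80 days after full bloom was followed in the berries of Victoria, a white table-grape cultivar of the grapevine Vitis vinifera. It was taken as the difference between the 3 libraries of 80 days and the 3 libraries of 50 days, which are 6 of the 12 libraries of the series. The 3 libraries of 60 days lie between them in time and do not enter that difference, though they share in the filter on low values and in the estimate of the spread. All groups are fruit of the same cultivar, with no treatment in the labels, which name age as the only difference. Anything else that goes with age, such as the day of harvest, cannot be told apart from it. The labels' protocols describe separate extractions from several biological replicates that were then combined, so the 3 libraries of each age (a, b and c) may come from a common pool. The p-values below therefore measure only the spread between libraries, which may be technical.

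A grape berry first grows while it is hard, green and acid, and then enters ripening at veraison. During ripening it softens, takes up sugar, loses malic acid, and slows the synthesis of tannins and of the photosynthetic apparatus. The labels give days after bloom and no stage of ripening, and the berries are not assigned to one here. The deposited table lists genes by ID without names, and none of them (0 of 22580) could be found in the reference gene table. No function is therefore given to any ID, the fruit could not be checked against marker genes, and the changes are described by level, timing, abundance and place in the ID series.

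Values are FPKM, fragments per kilobase of transcript per 1000000 mapped fragments, as deposited. Of the 22580 IDs, 14743 had at least 1 FPKM in at least 3 of the 12 libraries and were tested. Within each library of 50, 60 and 80 days between 17774 and 18359 IDs were above 0. Absolute depth is unknown. Low values fell on steps as whole fragments give, and from these steps the 50-day library a was the deepest of the 9, the others having between 0.483 and 0.707 of its depth. The step was least clear in the 60-day library c, which was also the shallowest. Over the tested genes, Pearson's r of log2(FPKM + 1) was 0.980 to 0.985 between the 50-day libraries, 0.972 to 0.983 between the 80-day libraries, and 0.909 to 0.940 between a 50-day and an 80-day library.

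From 50 to 80 days more genes fell than rose. In 1202 genes the level was lower at 80 days and in 539 it was higher, 1741 of the 14743 tested genes in all (11.8%, of which 8.15% lower and 3.66% higher). The median fall was -1.45 on the log2(FPKM + 1) scale (quartiles -1.97 and -1.18) and the median rise 1.44 (quartiles 1.15 and 1.92). The minimum difference of 1, required in both directions, holds these medians near each other, so their likeness is no result. A change of at least 2 on that scale was reached by 287 falls and 122 rises, of at least 3 by 80 falls and 36 rises, and of at least 4 by 17 falls and 9 rises. Genes were called by a moderated test in limma, with a Benjamini-Hochberg adjusted p under 0.05 and a difference of at least 1. The 50-day and 80-day libraries did not overlap in 533 of the 539 rises and 1171 of the 1202 falls, against 23.1% and 29.7% of all tested genes that lay apart upward and downward. Those genes were called on the same libraries, so the counts describe them and support nothing.

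The balance of directions depended on the scaling. As deposited, the median over tested genes was -0.05, and 31.0% of called genes rose. The summed FPKM of the 80-day libraries was 1.18 times that of the 50-day libraries. With every library brought to a sum of 1000000 the median gene moved to -0.24, and 347 genes rose while 1582 fell (17.99% rises). Median-of-ratios scaling, which sets changes against the median gene, gave 600 rises and 1139 falls (34.5% rises). A pseudocount of 5 left 937 genes, and dropping the minimum difference gave 6400.

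Most genes changed by less than 1 log2 unit, which is not the same as no change. With no minimum difference, 6400 of the 14743 had a limma adjusted p under 0.05. In low genes the pseudocount shrinks the difference and eases this bound. For 10471 genes (71.0%) the 95% interval of the difference lay wholly within 1 log2 unit of 0. A further 2531 genes (17.2%) were neither called nor bounded in this way, so their change was not settled at this precision. The median standard error of a difference was 0.15 and the median interval reached 0.32 to either side on the log2 scale.

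**Figure D1:**
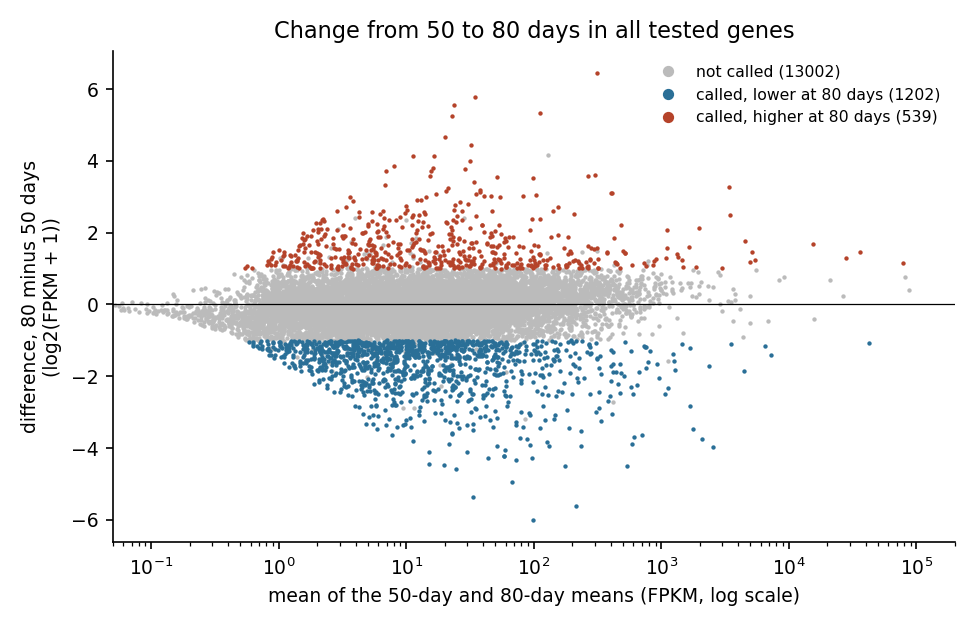
Difference between 80 and 50 days on the log2(FPKM + 1) scale (vertical axis) against the mean of the means of both ages in FPKM (horizontal axis, log scale), with 1 point per tested gene; 5 genes with a mean under 0.05 FPKM lie off the axis. Called falls (1202) outnumber called rises (539), and called genes occur from below 1 FPKM to the most abundant transcripts.

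The genes that rose had a lower median at 50 days than all tested genes, though some were among the most abundant. Their median level was 5.98 FPKM at 50 days, 10.2 at 60 days and 25.6 at 80 days, while the median tested gene was at 13.03, 12.6 and 11.9 FPKM. Falling genes went the other way, from a median of 17.9 FPKM at 50 days to 13.4 at 60 days and 5.07 at 80 days. Both sets were chosen by the difference between the 50-day and 80-day libraries, so their levels at those ages describe the choice. The 60-day levels do not enter the difference itself, and in both groups their median lay between the ends. The 122 rises of at least 2 had medians of 2.72, 7.28 and 31.7 FPKM at the 3 ages. The 287 falls of that size had medians of 36.97, 22.0 and 4.45 FPKM. In a bulk sample, fewer cells of a type and less RNA per cell cannot be told apart.

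Some rises started from a very low level, and most of these stayed low. In 112 of the 539 rises the 50-day mean was under 1 FPKM, and their median at 80 days was 3.24 FPKM (quartiles 2.31 and 4.72). Of these, 10 were listed at 0 in all 3 libraries of 50 days. In 231 of the 1202 falls the 80-day mean was under 1 FPKM, and their median at 50 days had been 3.36 FPKM. Among these, 13 were listed at 0 in all 3 libraries of 80 days. A zero in such a table can be a failed estimate. Levels of at least 100 FPKM at 80 days were reached by 124 rises, and of at least 1000 FPKM by 26. Of the falls, 191 had at least 100 FPKM at 50 days and 32 at least 1000 FPKM.

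Genes of the highest level were called most often. With a mean over both ages of more than 1000 FPKM, 21 of 90 genes rose (23.3%) and 17 fell (18.9%). Between 100 and 1000 FPKM 5.70% of 1420 genes rose and 8.73% fell. Between 5 and 20 FPKM it was 2.86% and 8.26% of 4832 genes, and between 1 and 5 FPKM 4.08% and 9.71% of 3285. Rises outnumbered falls only in the highest class, and there the order turned when libraries were scaled to a sum of 1000000 (14 rises and 19 falls). Below 1 FPKM, where the pseudocount shrinks every difference, 1.45% of 894 genes rose and 2.80% fell.

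**Figure D2:**
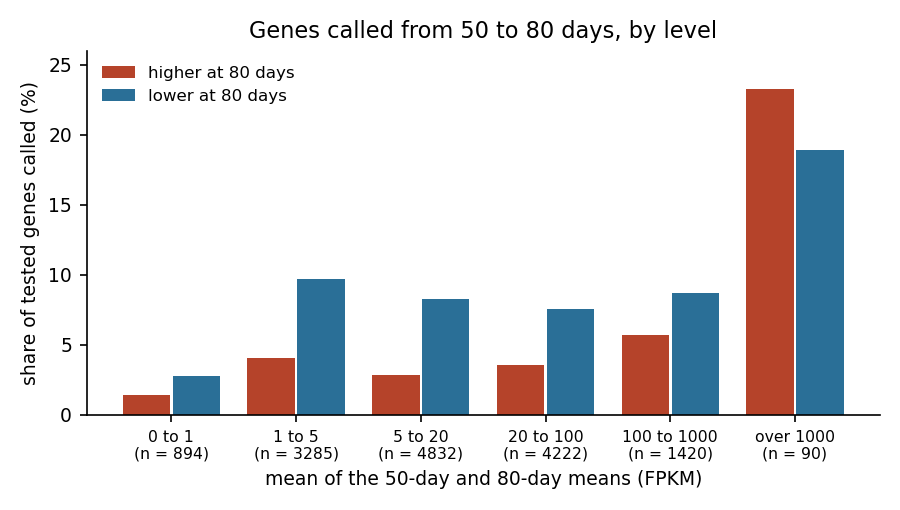
Share of tested genes called higher (red) or lower (blue) at 80 than at 50 days, in percent, by the mean level over both ages in FPKM, with the number of tested genes under each class. Falls outnumber rises in each class but the highest, where 23.3% rose and 18.9% fell on the deposited values.

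A few abundant transcripts carried most of the summed FPKM gain of the called rises. The genes that rose held 12.1%, 10.6% and 11.1% of the summed FPKM in the 50-day libraries a, b and c, 15.9%, 16.5% and 15.5% in the 60-day libraries, and 24.1%, 24.97% and 25.5% in the 80-day libraries. The libraries of each age stood apart from those of the others. The genes that fell held 17.5%, 18.6% and 17.2% in the 50-day libraries, then 13.3%, 12.8% and 13.1% at 60 days, and 5.04%, 5.46% and 5.18% in those of 80 days. Their share was below that of the rises in every 60-day library and above it in every 50-day library. The sets were chosen by the difference between the 50-day and 80-day libraries, so the shares at those ages describe the choice. Of the summed gain of the 539 rises, 64.4% came from the 4 genes with the largest gain in FPKM. Gains of genes that were not called are not in that sum, and the summed FPKM itself was 1.18 times that of 50 days. The falls were spread more widely, with 34.5% of their summed loss in the 4 genes of largest loss and 22.2% in a single gene.

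**Figure D3:**
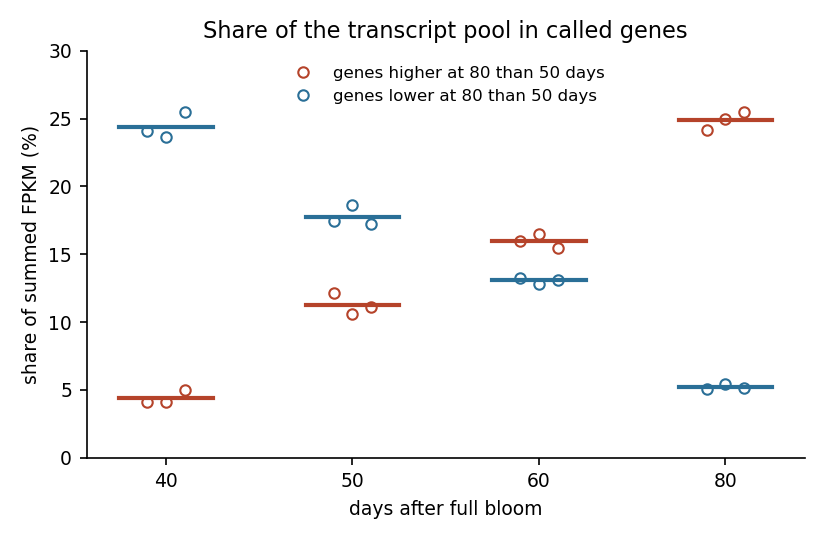
Share of each library's summed FPKM, in percent, held by the genes called higher (red) or lower (blue) at 80 than at 50 days, for the 3 libraries (circles) of each age with their mean (line). The shares cross between 50 and 60 days: 17.8% on average for falling and 11.3% for rising genes at 50 days, then 13.1% against 16.0% at 60 days, and finally 5.23% against 24.9%.

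The 10 most abundant genes at 80 days were mostly those of 50 days, in another order. Of them, 9 were also among the 10 highest at 50 days. Under the call rule 4 were higher, 1 was lower and 5 were not called. Choosing genes by their 80-day level favours rises. The most abundant gene at 80 days was at 56394, 47406 and 40989 FPKM in the 50-day libraries, 81481, 90347 and 76483 at 60 days, and 91110, 115619 and 118306 at 80 days. All its values rank by age, and its log2 difference was 1.17 ± 0.26 (limma adjusted p = 0.0039; errors of log2 differences are standard errors throughout). When libraries were scaled to a sum of 1000000 it was 0.93, under the minimum of 1. The gene ranked 4 at 80 days rose from 20974, 19093 and 17388 FPKM to 49938, 60525 and 48950 FPKM (1.47 ± 0.22, limma adjusted p = 0.00032). The gene ranked 5 rose from 15208, 16624 and 17043 FPKM to 38889, 42815 and 37878 FPKM (1.29 ± 0.17, limma adjusted p = 0.00016). The gene ranked 9 had been number 14 at 50 days and was at 8838, 6443 and 6825 FPKM there, against 27869, 23517 and 19189 FPKM at 80 days (1.67 ± 0.47, limma adjusted p = 0.015). In these 3 genes every 80-day library stood above every 50-day library, and the calls held with both other scalings.

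The single falling gene among the 10 had been number 3 at 50 days. It was at 56341, 60087 and 54399 FPKM in the 50-day libraries, 45814, 53136 and 50599 at 60 days, and 31419, 27501 and 23106 at 80 days (-1.07 ± 0.24, limma adjusted p = 0.0046). Both other scalings kept its call. The genes ranked 2 and 3 at 80 days were not called. The first of these varied widely at 50 days (92193, 58009 and 38028 FPKM) and reached 85587, 111483 and 106954 at 80 days, so that its libraries overlapped.

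The most abundant genes held a larger share of the transcript pool at 80 days. The 10 highest genes of each library held 32.3%, 30.6% and 28.4% of the summed FPKM in the 50-day libraries and 36.3%, 40.1% and 38.9% in the 80-day libraries, with 33.7%, 35.9% and 33.8% between them at 60 days. The mean was higher by 7.997 percentage points at 80 days. The 100 highest genes held 49.0% ± 1.7 (SD, n = 3) at 50 days and 56.2% ± 1.2 at 80 days. At 50 days 8354 ± 59 IDs had at least 10 FPKM, against 7957 ± 17 at 80 days, and 13791 ± 23 against 13554 ± 27 had at least 1 FPKM, though such counts move with the scaling. At 60 days 8200 ± 50 IDs reached 10 FPKM, between the ends, and 13835 ± 25 reached 1 FPKM, above both ends. The 100 highest genes held 51.7% ± 1.2 then. In each of the 4 measures the 50-day and 80-day libraries did not overlap, and the two-sided exact permutation test gave p = 0.1, the smallest that 3 libraries against 3 allow.

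In each direction the 2 genes that changed most are given by ID, taken from called genes whose mean was 10 FPKM or more at the age of higher level and whose 50-day and 80-day libraries did not overlap. Those criteria were met by 360 rises and 777 falls. The largest rise was that of VIT_14s0171g00100. It was at 8.18, 5.10 and 5.09 FPKM in the 50-day libraries a, b and c, at 2.10, 2.73 and 2.44 at 60 days, and at 487, 565 and 818 at 80 days. It was thus low until 60 days, and every 80-day library stood far above all others. Its difference from 50 to 80 days was 6.45 ± 0.38 in log2 units (limma adjusted p = 9.12e-07).

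VIT_02s0087g00920 had the next largest rise and was already on its way at 60 days. It was at 0.358, 0.0949 and 0.225 FPKM at 50 days, at 1.67, 9.64 and 9.01 at 60 days, and at 90.4, 66.6 and 49.2 at 80 days (5.79 ± 0.44, limma adjusted p = 4.65e-06). All 60-day libraries lay between the ends, with library a lowest. VIT_10s0003g01070 had the largest fall. It was at 307, 177 and 105 FPKM at 50 days, at 54.2, 69.5 and 63.4 at 60 days, and at 0.343, 3.38 and 2.72 at 80 days (-6.01 ± 0.45, limma adjusted p = 3.98e-06). No library of any of the 3 ages reached the range of another age.

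VIT_01s0011g02720 had the next largest fall and varied most between libraries. It was at 112, 738 and 404 FPKM at 50 days, at 124, 308 and 358 at 60 days, and at 3.70, 26.7 and 1.27 at 80 days (-5.60 ± 0.86, limma adjusted p = 0.00041). The 50-day and 60-day libraries overlapped, with library a lowest at both ages, and all lay above the 80-day libraries. The sign and the call of the 4 differences from 50 to 80 days held under the 19 alternatives run. Their order did not: sorted within the same 360 and 777 genes, VIT_14s0171g00100 came 7th with a pseudocount of 0.1, VIT_02s0087g00920 between 2nd and 3rd, VIT_10s0003g01070 between 1st and 2nd, and VIT_01s0011g02720 between 1st and 5th.

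**Figure D4:**
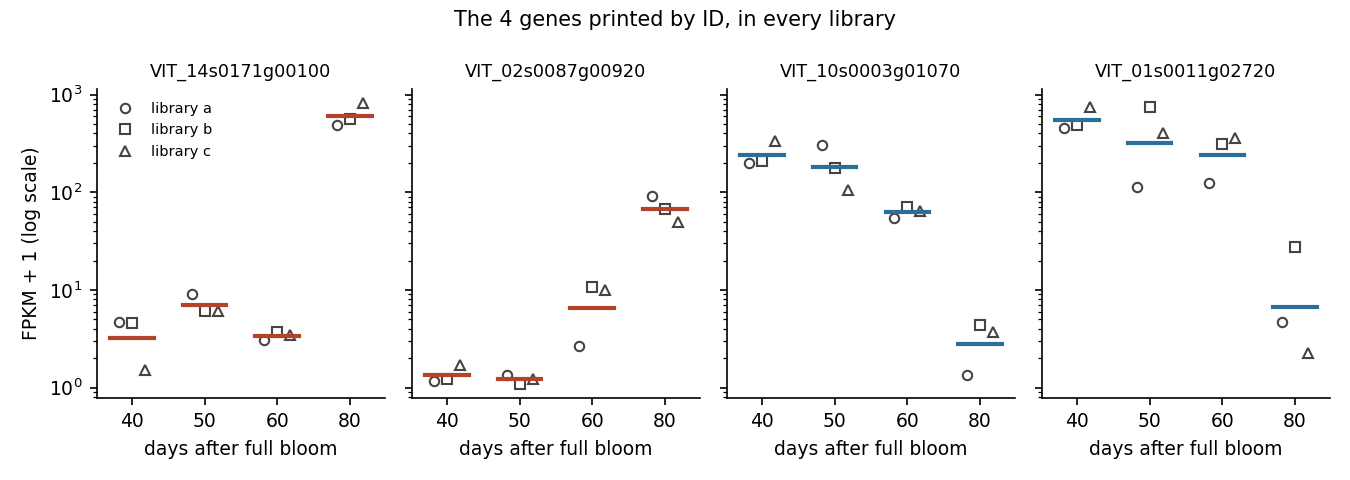
Level of the 4 genes printed by ID in each of the 12 libraries, as FPKM + 1 on a log axis, by days after full bloom; open symbols are libraries a, b and c, and lines are means of the log values. VIT_14s0171g00100 is high only at 80 days, VIT_02s0087g00920 rises through 60 days, and both falling genes are lowest at 80 days.

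The 60-day libraries show when the change took place. The difference between the later change (60 to 80 days) and the earlier one (50 to 60 days) was tested for each gene in the same fit. Its estimate is uncorrelated with that of the whole change only if the spread is equal at 50 and 80 days. The SD of deviations from the age mean was 0.24, 0.21 and 0.23 in the 50-day libraries. In the 80-day libraries it was 0.30, 0.23 and 0.27. A wider 80-day spread favours a larger later change among called genes. Both calls also share the estimate of each gene's spread, so they are not independent. Of all tested genes 12.1% were called on it, 4.39% with a positive and 7.67% with a negative difference. Among the 539 rises the later change was larger in 118 (21.9%, against 4.39% of all tested genes with that sign). The earlier one was larger in 44 (8.16%, against 7.67%). Among the 1202 falls the later change was the larger in 391 (32.5%, against 7.67%), where the difference is negative. The earlier one was the larger in 50 (4.16%, against 4.39%). The shares with a larger earlier change were thus near those of all tested genes. In the other 377 rises and 761 falls no difference was called.

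The later interval is 20 days long and the earlier one 10 days. A constant change per day would put 33.3% of the log2 difference at 60 days. The rises had a median of 36.7% by then (quartiles 13.8% and 61.8%), and the falls 27.5% (quartiles 3.86% and 55.2%). Measured against a constant daily change, 57 rises were later and 71 earlier, and 213 falls were later and 130 earlier. That measure is correlated with the whole change and was chosen after seeing the data. The counts of earlier change also rested on single libraries. Without the 60-day library b or c they were 20 or 19 rises, and 21 falls in either case. The later changes also dropped then, to 85 or 84 rises and 277 or 293 falls. All genes called on the intervals numbered 1246 or 1222. The positive differences over all genes numbered 416 without library c.

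The timing groups had these courses. The 118 later rises had median levels of 8.52 FPKM at 50 days, 7.18 at 60 days and 36.8 at 80 days, flat and then up. The 44 earlier rises went from 3.48 to 16.1 FPKM by 60 days and stood at 14.7 at 80 days. The 391 later falls stayed at 23.3 and 25.8 FPKM at 50 and 60 days and were at 5.88 at 80 days, while the 50 earlier falls went from 16.4 to 4.40 FPKM by 60 days and were at 4.53 at 80 days. The genes were sorted on these values, which therefore describe the groups. In 77 rises and 259 falls the 60-day mean lay beyond the 50-day mean, opposite to the later change, and in 31 rises and 49 falls it lay beyond the 80-day mean.

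**Figure D5:**
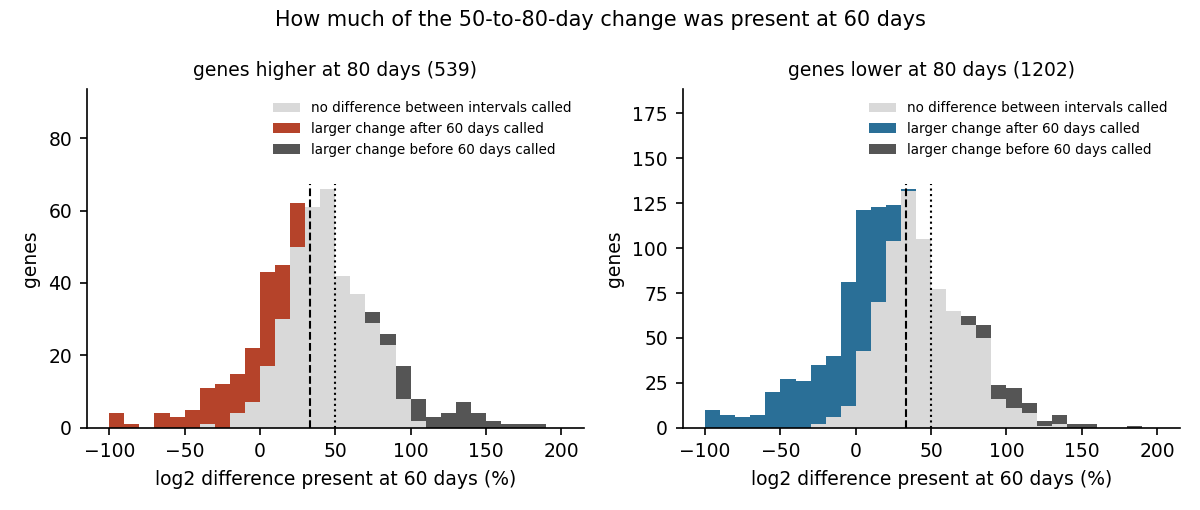
Number of genes by the percentage of their log2 difference between 50 and 80 days that was present at 60 days, for the 539 rises and 1202 falls; values beyond the axis are drawn in its end bars, the dashed line marks a constant daily change (33.3%) and the dotted line equal changes in both intervals. Genes with a larger later change (118 rises and 391 falls, coloured) outnumber those with a larger earlier change (44 and 50, dark grey).

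Of the 4 genes printed by ID, VIT_14s0171g00100 changed later, with a difference between the intervals of 8.51 ± 0.65 (limma adjusted p = 4.06e-05). VIT_10s0003g01070 and VIT_01s0011g02720 also fell more after 60 days (-2.98 ± 0.78 and -4.74 ± 1.5, limma adjusted p = 0.021 and 0.045), but these calls were lost in 3 and 11 of 22 alternatives. Against a constant daily change their values were -0.98 and -2.88, and neither was called. VIT_02s0087g00920 was not called (0.93 ± 0.77, limma adjusted p = 0.43), and without the 60-day library a its sign turned (-0.37). With a pseudocount of 5 this gene was called (1.61, limma adjusted p = 0.034).

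Libraries of an age were not equally far along the change. Placed on the line from the 50-day mean (0%) to the 80-day mean (100%) over the rising genes, the 60-day libraries a, b and c stood at 27.8%, 40.0% and 37.1%. Over the falling genes they stood at 25.6%, 29.4% and 30.4%, so library a was the least advanced on both. Library a was the lowest of the 60-day libraries in 50.8% of the rises and the highest in 30.6%. In the falls it was the highest in 47.3% and the lowest in 36.5%. Over all tested genes it was the lowest in 39.1% and the highest in 35.9%, and its deviation from the age mean was the widest of the 60-day libraries (SD 0.25 in log2 units, against 0.19 and 0.20). At 80 days library a was the highest in 55.8% of the rises and the lowest in 23.2%. In the falls it was the lowest in 49.8% and the highest in 26.4%, and over all tested genes it was the highest in 43.3% and the lowest in 35.1%. By share of summed FPKM the 80-day library a was the lowest of its age in the rises (24.1%, against 24.97% and 25.5%). It was also the lowest in the falls (5.04%, against 5.46% and 5.18%). The 80-day values took part in choosing the genes. Of the 9 libraries of these ages the 80-day library a had the widest deviation from its age mean (SD 0.30 in log2 units, with 0.19 to 0.27 in the remaining libraries of 50, 60 and 80 days). Without it 519 genes rose and 1123 fell. What sets these libraries apart was not tested.

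Some of the changed genes lay next to each other in the ID series. The VIT_ IDs carry a chromosome, a scaffold and a gene number, which were read as fields of the ID and not as positions. Of 12924 pairs of tested IDs that follow each other on a scaffold, the second had risen in 3.64% and fallen in 8.13%. After an ID that rose, the next had also risen in 34 of 459 pairs (7.41%) and had fallen in 29 (6.32%). After an ID that fell, the next had also fallen in 129 of 1051 pairs (12.3%) and had risen in 38 (3.62%). Neighbouring genes can be near-identical copies, or can overlap, and how the authors divided their reads is not given in the sources used here. By chromosome field the share of tested genes that rose ran from 2.24% (17) to 5.09% (2), and the share that fell from 6.85% (15) to 9.28% (12). Of the 327 tested newGene IDs, which have no VIT_ ID, 5.20% rose and 8.87% fell.

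In 3 places 4 or more neighbouring tested IDs all fell, and no such run of rises occurred, where the longest had 3 IDs. Falls were the more frequent call (8.13% against 3.64% of second IDs), so the runs of the directions cannot be compared directly. The longest run, of 5 IDs, lay on scaffold field 0007 of chromosome field 8 and held abundant genes. Their means went from 41.7, 175, 260, 428 and 190 FPKM at 50 days to 1.93, 11.7, 28.0, 39.8 and 45.6 FPKM at 80 days, with log2 differences between -2.03 and -3.95. In 4 of the 5 the level was already lower at 60 days (16.5 to 107 FPKM), while the fourth was at 718 FPKM then, above its 50-day mean, and its later change was the larger (-5.45, limma adjusted p = 0.019). The 50-day library c was the lowest of its age in all 5.

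A run of 4 IDs on scaffold field 0004 of chromosome field 6 went from means of 14.6, 7.99, 7.95 and 21.9 FPKM at 50 days to 1.78, 0.921, 2.87 and 0.681 FPKM at 80 days (log2 differences of -1.21 to -3.79). In 3 of its 4 members the later change was called larger. The run on scaffold field 0050 of chromosome field 16 joined an abundant gene (464 FPKM at 50 days, 167 at 80 days) with 3 low ones (6.64, 8.78 and 13.4 FPKM at 50 days, 2.19, 3.52 and 6.27 at 80 days). Its log2 differences were between -1.01 and -1.48, no difference between the intervals was called, and its last member lost the call with median-of-ratios scaling.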

How the data were processed

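RNA sequencing of Victoria fruit at 4 ages gave 12 libraries. The authors deposited 1 table of FPKM values per gene ID and library. Per the submitters' processing notes the tools include Trimmomatic 0.36, FastQC, TopHat2, Cufflinks and edgeR, with no role stated. The sources used here do not give the build, annotation or settings. Columns were matched by the labels' descriptions. There were 21791 VIT_ and 789 newGene IDs.

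FPKM values are no counts, so log2(FPKM + 1), with a pseudocount of 1 that understates low genes' changes, was fitted with limma 3.58.1 (R 4.3.3; 1 mean per age, all 12 libraries, intensity trend, 8 residual degrees of freedom). The fit was tested on simulated data. Relative depth came from the commonest ratio to the 50-day library a among values of 0.005 to 0.3 FPKM. Descriptions used scipy 1.17.1, pandas 2.3.3 and numpy 2.4.6 under Python 3.11.15.

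Genes given by ID were the 2 largest changes in each direction meeting the criteria in the text; product lists and marker lists had no names to match. Age groups, rules and lists were chosen with earlier results of these data known. Alternatives were pseudocounts, filters, scalings, sample weights, the replicate letter as a block, no trend, no minimum difference, fewer ages, and each library left out.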

Additional observations from a re-analysis of the deposited data

How the results depend on the processing

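For 50 to 80 days, a pseudocount of 5 gave 937 genes (310 higher, 627 lower), no minimum difference 6400 (2766 and 3634), and scaling to a sum of 1000000 gave 347 higher. The other alternatives kept the total between 1508 and 2314, and leaving out single libraries kept it between 1634 and 1828. Genes with unequal intervals numbered 1778. With a pseudocount of 5 they were 1112 (381 positive, 731 negative), with no minimum difference 3005 (1373 positive), and without single libraries positive differences ranged from 416 to 675. Later rises, earlier rises, later falls and earlier falls numbered 74, 18, 217 and 30 with a pseudocount of 5, and 420, 156, 856 and 250 with no minimum difference. Against a constant daily change they numbered 57, 71, 213 and 130. Earlier falls numbered 79 with scaling to a sum of 1000000 and 105 with sample weights. Without single libraries earlier rises ranged from 19 to 50 and earlier falls from 21 to 68. Later rises ranged from 84 to 134 and later falls from 277 to 426. A larger pseudocount and a dropped minimum difference change counts by construction; the cause of the other moves was not tested. The difference between intervals of VIT_02s0087g00920 turned to -0.51 with a pseudocount of 0.1, -0.997 against a constant daily change and -0.37 without the 60-day library a. With a pseudocount of 5 it was 1.61 and was called (limma adjusted p = 0.034). It ranged from -0.37 to 1.63 without single libraries. The gain in share of the 10 highest genes was 6.99 to 9.08 points without single libraries.

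Libraries with the same letter did not pair at all ages. Of 18 same-letter pairs across ages, 4 had deviations correlated above 0.1 (-0.16 to 0.19), and 6 of 12 libraries matched their own letter best. Those 4 pairs each held a 50-day library. Same-letter values were 0.133, 0.054 and 0.189 between 50 and 60 days, and 0.105, 0.121 and 0.004 between 50 and 80 days. Different-letter pairs of those ages ran from -0.152 to 0.017. Between the other ages different-letter pairs ran from -0.172 to 0.191, and the highest of these was above every same-letter value. Deviations from an age mean cancel over the libraries of that age, so the pair values are not independent. The other same-letter pairs ran from -0.161 to 0.087. What the letters share was not tested. The replicate block gave 1735 genes for 50 to 80 days, 1724 of them among the 1741, and 1694 for the intervals. Depth is unknown, so no limit from counting could be set on low values.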

Other observations

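The 40-day libraries entered the filter on low values and the shared spread but not the comparison. With the filter on the 9 libraries of 50, 60 and 80 days, 14293 genes were tested and 1729 called. At 40 days the genes that later rose had a median of 5.68 FPKM, close to their 5.98 at 50 days, and held 4.41% ± 0.51 (SD, n = 3) of the summed FPKM. Genes that later fell had a median of 24.1 FPKM at 40 days against 17.9 at 50 days, and held 24.4% ± 0.94. On the line from the 50-day mean to the 80-day mean the 40-day libraries stood at -8.06%, -8.01% and -6.86% over the rising genes and at -14.4%, -14.6% and -24.9% over the falling genes, with library c apart from the others on the latter.

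A group of 1175 genes was called on the difference between the intervals but not from 50 to 80 days. In 696 of them the 60-day level was above the mean of the ends (medians of 6.57, 11.8 and 5.20 FPKM at 50, 60 and 80 days) and in 479 it was below (15.4, 8.20 and 15.6 FPKM). A comparison of the ends alone does not show these genes.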
